A study of Homo sapiens with 66 samples.

Results

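The comparison described here is that of DMSO-treated, carfilzomib-resistant L363 cells at 24 h with the same cells at 6 h. L363 is an established human plasma cell line, and L363-CFZr is a line of it that is resistant to carfilzomib (CFZ), a drug that blocks the catalytic activity of the proteasome. Its members were chosen by label, as the 3 libraries of each of these 2 groups, 6 of the 66 libraries of the series. Both groups carried the same vehicle, DMSO, and no inhibitor, so they served as the solvent controls of a study of prolyl-tRNA synthetase inhibitors. The remaining groups are L363-CFZr cells given halofuginol (MAZ1805), halofuginone (MAZ1392), NCP26 or NCP22, and AMO1 cells, another myeloma line, with DMSO and with inhibitors, each at 6 h and 24 h. The comparison asks how far the transcriptome of the resistant line moved between the sampling times with no inhibitor present. L363-CFZr was 1 resistant line and the labels give no parental L363 samples, so nothing here separates resistance from the line. Time is not the only thing that differed. Pellets of the 6 h samples were frozen in Trizol overnight while those of the 24 h samples were kept on ice, and the 6 h libraries carried the numbers 41 to 43 in their titles while the 24 h libraries carried 8 to 10, so that time in culture, storage and set of library numbers cannot be told apart within these 6 libraries. The labels call the samples triplicates and do not say whether they were separate cultures, so the p-values below measure the spread between these samples, which may be technical.

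Plasma cells are antibody-secreting B lineage cells that depend on protein folding in the endoplasmic reticulum and on the proteasome. The transcriptional programmes that recur below can respond to culture conditions, and whether they did so here was not tested. Hypoxia-inducible factors are kept low by oxygen-using prolyl hydroxylases and, when they accumulate, raise genes of glycolysis, glucose uptake and mitochondrial removal. Interferon signalling acts through transcription factors such as STAT2 and IRF9 on antiviral genes. Heat shock factor raises cytosolic chaperones when unfolded protein accumulates. In a suspension culture left without fresh medium, cells use up glucose, amino acids and growth factors with time. SREBP factors, which raise sterol synthesis genes, are held back when sterol is plentiful.

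The labelled cell type was checked against its markers before any comparison. SDC1, which encodes the plasma cell surface proteoglycan CD138, was read at 942, 967 and 965 CPM (the count of a gene relative to the total of its library, scaled by TMM) at 6 h and at 578, 552 and 530 CPM at 24 h, and JCHAIN, the joining chain of secreted antibodies, was at 2995 CPM or more in every library. CD27, CD79A and FCRL5, which belong to the list of 14 plasma cell markers used here, were below 0.73 CPM throughout and were not tested. Markers of other cells were low. The summed level of 12 monocyte and macrophage markers lay between 1.63 and 3.36 CPM, that of 8 erythroid markers between 0.637 and 1.30 CPM, that of 10 stromal markers between 2.37 and 13.4 CPM and that of 9 epithelial markers between 4.40 and 26.5 CPM. The 11 T and NK cell markers summed to 200.5 to 227 CPM, with 6 of them at 0 in all 6 libraries and nearly all of the sum in CD4.

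Depth was low and 1 library stood apart. Total counts ran from 3030772 to 4983522 at 6 h and from 2487872 to 4084252 at 24 h, the lowest being 24 h replicate 2. The log2 CPM of the 6 h libraries correlated at 0.982 to 0.986 with each other and those of 24 h replicates 1 and 3 at 0.987, whereas 24 h replicate 2 reached 0.914 and 0.917 with its own group. Counts assigned to ribosomal protein genes made up 11.6, 11.3 and 12% of the 6 h libraries and 10, 4.23 and 9.96% of the 24 h libraries. Genes in the longest of 3 equal bins of transcript length, with a median of 3029 bases, deviated from the mean of all libraries by a median of 0.49 on the log2 scale in 24 h replicate 2 and by 0.06 or less in the other 24 h libraries. For this reason the counts of each gene list, and the fold changes of genes given with their SE, are shown with 24 h replicate 2 and without it. A log2 fold change that stands alone is that of the fit of 6 libraries. No library pair held identical values.

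**Figure D1:**
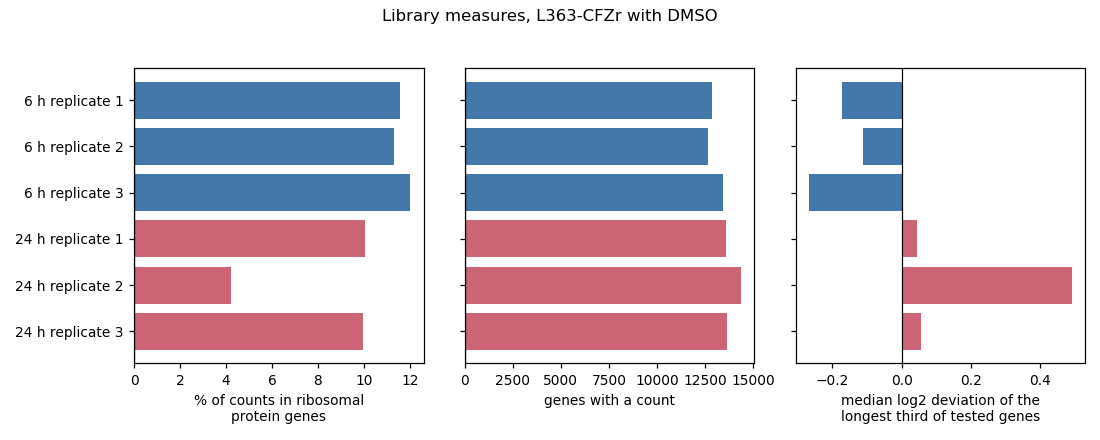
Measures of each of the 6 DMSO libraries of L363-CFZr (rows), drawn as horizontal bars with the unit on each axis: share of counts in ribosomal protein genes, number of genes with a count, and median log2 deviation of the genes in the longest of 3 length bins from the mean of all libraries. The bar of 24 h replicate 2 is the shortest for ribosomal protein genes, at 4.23%, and the longest to the right for long genes, at 0.49.

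Of 10554 genes tested with edgeR's quasi-likelihood test, 1563 changed between 6 h and 24 h at a Benjamini-Hochberg adjusted p under 0.05, 950 higher at 24 h and 613 lower. Among them 442 rose and 88 fell by at least 2-fold. Without 24 h replicate 2, 4419 of 10748 genes changed, 2164 higher and 2255 lower, and the common dispersion was 0.00437 in place of 0.0380. All 1563 genes were also called there, with the same sign. In 6 libraries the groups did not overlap for 5179 of the 10554 tested genes, among them all 1563 called ones. Separate groups of a called gene, where mentioned below, therefore add nothing to its call. With 24 h replicate 2 kept and 1 of the 6 h libraries left out, 15, 21 and 14 genes were called without 6 h replicate 1, 2 and 3. The count was 1202 without 24 h replicate 1 and 793 without 24 h replicate 3. In bulk RNA, a lower level of a transcript per cell and fewer cells that carry it cannot be told apart.

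Genes of the hypoxia response rose most as a group. Of 19 tested members, 14 rose and 0 fell in the fit of 6 libraries, in which 9% of all tested genes were called higher and 5.81% lower, and their median log2 fold change was 1.05 against 0.01 over all tested genes. Without 24 h replicate 2, 17 of 19 rose and 1, ADM, fell, where 20.1% of all tested genes were called higher and 21% lower, with a median of 1.02. The list has 20 members, and EGLN3, a prolyl hydroxylase, was at or below 0.74 CPM in every library and was not tested. Without 6 h replicate 1, 2 or 3, 2, 3 and 2 members passed the threshold, at medians of 1.03, 1.12 and 1.01.

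HILPDA, which encodes a lipid droplet protein that restrains lipolysis in hypoxia, was the member with the smallest adjusted p. It was read at 51.2, 50.8 and 44.6 CPM at 6 h and 236, 271 and 220.0 CPM at 24 h. The 24 h libraries lay far above the 6 h libraries with no overlap, 24 h replicate 2 being the highest (log2 fold change 2.31, SE 0.15, adjusted p = 0.00125, edgeR with Benjamini-Hochberg adjustment, as for every adjusted p below, and without 24 h replicate 2 2.24, adjusted p = 9.81e-13). RORA, a nuclear receptor that binds sterol-like ligands, rose from 4.57, 4.74 and 3.61 CPM to 26.1, 37.7 and 26.7 CPM (log2 fold change 2.81, SE 0.24, adjusted p = 0.00222, and without replicate 2 2.64, adjusted p = 3.41e-08). CA9, the carbonic anhydrase that exports acid from hypoxic cells, was near the detection limit at 6 h, with 1.30, 0.678 and 1.27 CPM, and reached 10.3, 7.08 and 8.26 CPM at 24 h (log2 fold change 2.91, SE 0.34, adjusted p = 0.0068, and without replicate 2 3.02, adjusted p = 5.96e-06). AK4, a mitochondrial adenylate kinase outside the list, rose in the same manner from 5.22, 7.11 and 4.46 CPM to 33, 37.3 and 31.6 CPM (log2 fold change 2.62, SE 0.21, adjusted p = 0.00198, and without replicate 2 2.57, adjusted p = 2.14e-08). For each of these 4 genes the lowest 24 h library exceeded the highest 6 h library by a wide margin, though separate groups were shared by all 1563 called genes.

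The collagen prolyl hydroxylase subunits and the oxygen sensor itself were among the risers. P4HA1 was read at 147, 158 and 152 CPM at 6 h and 517, 414 and 505 CPM at 24 h (log2 fold change 1.65, SE 0.14, adjusted p = 0.00245, and without 24 h replicate 2 1.75, adjusted p = 9.63e-13). Its relative P4HA2 was at 25.4, 28.8 and 22.7 CPM at 6 h and 98.7, 58.5 and 104 CPM at 24 h, with 24 h replicate 2 the lowest of its group but still above every 6 h library (log2 fold change 1.77, SE 0.23, adjusted p = 0.00848, and without replicate 2 2.00, adjusted p = 1.87e-10). EGLN1, the prolyl hydroxylase that marks hypoxia-inducible factors for destruction, rose from 111, 117 and 100.0 CPM to 258, 225 and 257 CPM (log2 fold change 1.18, SE 0.13, adjusted p = 0.00668, and without replicate 2 1.25, adjusted p = 9.62e-10). 24 h replicates 1 and 3 lay close together for all 3 genes. BNIP3L, a receptor for the removal of mitochondria, was at 117, 128 and 107 CPM at 6 h and at 315, 237 and 324 CPM at 24 h (log2 fold change 1.32, SE 0.16, adjusted p = 0.00808, and without replicate 2 1.45, adjusted p = 9.01e-11). KDM3A and KDM4B, histone demethylases that use oxygen, rose with log2 fold changes of 0.89 and 1.20, PDK1, the kinase that closes pyruvate dehydrogenase, with 1.05, and VEGFA, the angiogenic growth factor, with 0.59. The remaining called members were NDRG1, MXI1 and INSIG2, at 0.74, 0.93 and 1.16.

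The 5 tested members that did not pass the threshold in 6 libraries were not alike. BNIP3 and ANKRD37 were higher in 24 h replicates 1 and 3 than in replicate 2. BNIP3 was at 40.8, 35.2 and 33.8 CPM at 6 h and at 80.4, 41.8 and 66.3 CPM at 24 h (log2 fold change 0.79, SE 0.23, adjusted p = 0.0566, and without replicate 2 1.02, adjusted p = 3.27e-06), with replicate 2 just above the highest 6 h library. ANKRD37 went from between 80.2 and 91.9 CPM to 151, 61.1 and 162 CPM, and passed without replicate 2 at 0.87. FAM162A passed there at 0.38. BHLHE40, a transcriptional repressor, gave a log2 fold change of 0.01, and ADM, the vasodilator peptide adrenomedullin, gave -0.36 in 6 libraries and -0.20 without replicate 2.

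**Figure D2:**
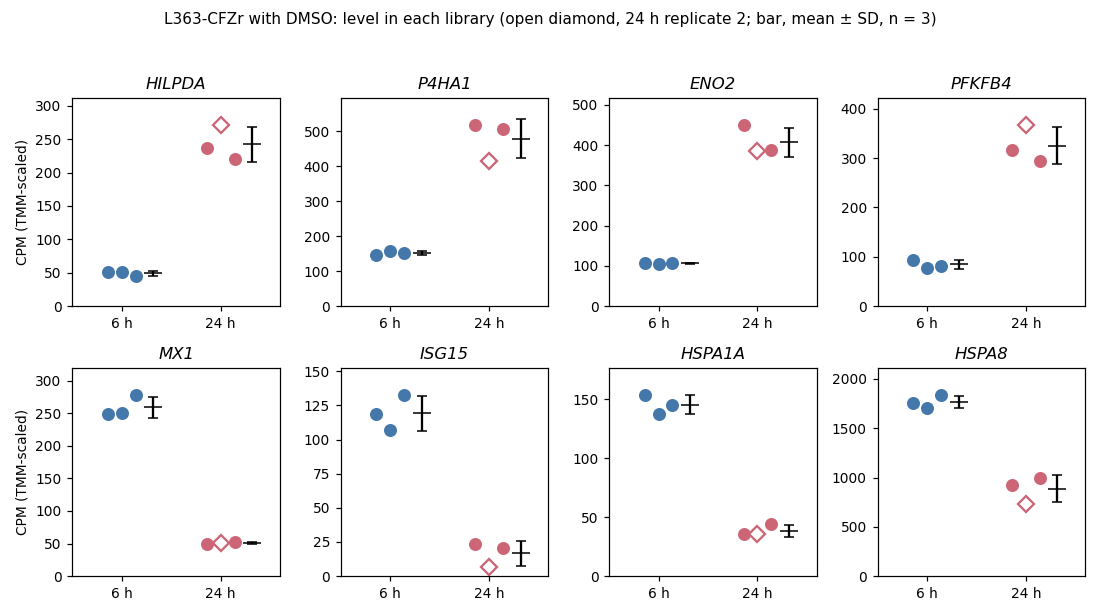
Levels in CPM (vertical axes, starting at 0) of single genes in the 3 libraries at 6 h and the 3 at 24 h, one panel per gene, with 24 h replicate 2 as an open diamond and the bar giving mean ± SD (n = 3). HILPDA stands at 44.6 to 51.2 CPM at 6 h and at 220.0 to 271 CPM at 24 h, while MX1 falls from 249 to 277 CPM to 49.1 to 52.9 CPM.

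Genes of glycolysis and glucose uptake were divided. Of 19 tested, 7 rose (36.8%, beside 9% of all tested genes) and 0 fell, with a median of 0.27. Without 24 h replicate 2, 14 rose (73.7%, beside 20.1%), with a median of 0.32. Another 3 fell there (15.8%, beside 21%), PKM, ENO1 and TPI1, by -0.34, -0.12 and -0.17. ENO2, an enolase isoform, was read at 108, 105 and 107 CPM at 6 h and 449, 385 and 388 CPM at 24 h (log2 fold change 1.93, SE 0.13, adjusted p = 0.00175, and without replicate 2 1.98, adjusted p = 9.63e-13). PFKFB4 and PFKFB3, which set the level of the main activator of phosphofructokinase, were at 94.2, 77.9 and 82 CPM at 6 h and 317, 366 and 294 CPM at 24 h, and at 62.3, 54.5 and 51 CPM at 6 h and 145, 178 and 136 CPM at 24 h, with log2 fold changes of 1.94 (adjusted p = 0.00198) and 1.45 (adjusted p = 0.00560). The groups did not overlap for any of these 3, and 24 h replicate 2 was the highest library for both PFKFB genes. HK2, a hexokinase, the glucose transporters SLC2A3 and SLC2A1, and GPI, the isomerase that follows hexokinase, rose by smaller steps of 0.97, 0.95, 0.62 and 0.87. GPI was by level the largest of them, at 1831, 1789 and 1893 CPM and then 3350, 3332 and 3395 CPM.

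The promoters of P4HA1 and ENO2 are shown because they hold the core letters of the hypoxia response element. RefSeq sequence (GRCh38.p14) of the 250 bases before the annotated start was searched on both strands for ACGTG and GCGTG, 2 forms that share their last 4 letters. The first line is chr10:73096867-73097116 on the minus strand and the second chr12:6914330-6914579 on the plus strand, each 5′ to 3′, with the match in capitals 86 and 118 bases before the start.
P4HA1: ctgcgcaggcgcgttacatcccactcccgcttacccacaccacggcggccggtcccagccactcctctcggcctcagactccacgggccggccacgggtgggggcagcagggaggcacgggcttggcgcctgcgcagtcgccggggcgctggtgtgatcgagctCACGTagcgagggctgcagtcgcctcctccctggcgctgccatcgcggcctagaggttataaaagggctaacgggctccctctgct
ENO2: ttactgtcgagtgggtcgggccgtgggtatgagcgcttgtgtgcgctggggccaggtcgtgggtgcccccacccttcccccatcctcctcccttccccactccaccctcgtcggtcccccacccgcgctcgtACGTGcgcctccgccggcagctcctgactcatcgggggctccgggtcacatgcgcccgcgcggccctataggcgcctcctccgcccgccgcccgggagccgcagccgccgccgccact
ACGTG was held by 9 of 15 hypoxia response promoters with an entry (60.0%), by 8 of 18 of glycolysis and glucose uptake (44.4%), by 24.3% of the 8576 promoters of tested genes and by 18.7% of all 27305 promoters. GCGTG was held by 6 of the 15 (40.0%) and by 47.4% of those of tested genes. RORA held neither form within this window, which says only that these letters are not in it.

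Interferon-stimulated genes fell most as a group. Of 27 tested, 14 fell (51.9%, beside 5.81% of all tested genes) and 0 rose, with a median of -0.88. Without 24 h replicate 2, 20 of 28 fell (71.4%, beside 21%) and 0 rose, with a median of -0.81. Summed over 31 members, the level was 1689, 1738 and 1811 CPM at 6 h and 812, 702 and 866 CPM at 24 h. In the fits without 6 h replicate 1, 2 or 3, 1 member passed the threshold each time, at medians of -0.85, -0.95 and -0.82.

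MX1, an antiviral GTPase, gave the most even fall of the list. It was read at 249, 251 and 277 CPM at 6 h and 49.1, 50.7 and 52.9 CPM at 24 h, and the spread within either group was small beside the difference (log2 fold change -2.35, SE 0.13, adjusted p = 0.000873, and without replicate 2 -2.34, adjusted p = 9.63e-13). Its relative MX2 was lower throughout, at 5.54, 6.10 and 4.25 CPM and then 0.489, 0.373 and 0 CPM (log2 fold change -4.08, SE 0.58, adjusted p = 0.0102, and without replicate 2 -4.23, adjusted p = 7.26e-05). ISG15, a ubiquitin-like protein attached to other proteins after interferon, was at 118, 107 and 132 CPM at 6 h and 23.7, 6.34 and 20.4 CPM at 24 h, with replicate 2 well under its own group (log2 fold change -2.78, SE 0.36, adjusted p = 0.00848, and without replicate 2 -2.44, adjusted p = 5.87e-11). USP18, the protease that removes ISG15, was at 13.4, 12.9 and 14.9 CPM and then 2.69, 1.49 and 3.89 CPM (log2 fold change -2.28, SE 0.30, adjusted p = 0.00848, and without replicate 2 -2.06, adjusted p = 1.1e-05), and 15.6% of the 31-base words of its transcripts also occur in other genes, mainly USP41. HERC5, the ligase that attaches ISG15, fell from between 10.6 and 14.3 CPM to between 3.36 and 4.86 CPM (log2 fold change -1.57, SE 0.25, adjusted p = 0.0129, and without replicate 2 -1.45, adjusted p = 0.00027). Thus ISG15, its ligase and its protease were all lower at 24 h.

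IRF9 and IRF7, transcription factors of the pathway, were lower too. STAT2 was not called in 6 libraries, and its log2 fold change ranged from -0.14 to 0.27 with each library left out. IRF9, the DNA-binding partner of STAT2, was at 52.5, 55.6 and 57.3 CPM and then 34, 31.3 and 31.6 CPM (log2 fold change -0.77, SE 0.13, adjusted p = 0.0139, and without replicate 2 -0.75, adjusted p = 6.03e-05). IRF7, which drives interferon genes, was at 44.7, 44 and 55.4 CPM and then 24.9, 24.2 and 26 CPM (log2 fold change -0.94, SE 0.15, adjusted p = 0.0133, and without replicate 2 -0.93, adjusted p = 3.35e-05). Neither had overlapping groups. OAS1 and OAS2, which make the messenger that switches on RNase L, gave log2 fold changes of -1.57 and -1.03, IFIH1, a sensor of double-stranded RNA, -0.56, and EPSTI1, IFI35, IFI44 and IFIT1 -1.75, -1.53, -2.64 and -1.48. IFI44 and IFIT1 rested on few counts, at 3.40 to 7.22 CPM at 6 h.

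The promoter of ISG15 is given because it holds the core of the interferon-stimulated response element in overlapping matches. It covers chr1:1013247-1013496 on the plus strand (RefSeq, GRCh38.p14), 5′ to 3′, with both matches in capitals, the nearer one 107 bases before the start.
ISG15: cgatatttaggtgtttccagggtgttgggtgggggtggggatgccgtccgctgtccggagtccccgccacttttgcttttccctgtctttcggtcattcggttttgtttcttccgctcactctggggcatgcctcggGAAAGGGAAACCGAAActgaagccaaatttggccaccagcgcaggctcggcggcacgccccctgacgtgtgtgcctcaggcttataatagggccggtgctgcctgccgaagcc
On either strand, 11 of 21 interferon-stimulated promoters with an entry held the core (52.4%), against 2.20% of the promoters of tested genes and 3.07% of all promoters. The letters were not found in the windows of MX1, OAS1, IFI35 and IRF9.

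Cytosolic chaperones fell. Of 20 heat shock genes tested, 9 fell (45%, beside 5.81% of all tested genes) and 0 rose, with a median of -0.61. Without 24 h replicate 2, 14 fell (70%, beside 21%), with a median of -0.48. Another 2 rose there (10%, beside 20.1%), SERPINH1 and DNAJB4, at 0.40 and 0.65. The inducible HSP70 gene HSPA1A was read at 153, 138 and 145 CPM at 6 h and 35.7, 35.4 and 44.2 CPM at 24 h (log2 fold change -1.92, SE 0.14, adjusted p = 0.00187, and without replicate 2 -1.86, adjusted p = 1.72e-10). Its neighbour HSPA1B was at 232, 215 and 282 CPM at 6 h and 79.6, 66.4 and 79.4 CPM at 24 h (log2 fold change -1.69, SE 0.16, adjusted p = 0.00308, and without replicate 2 -1.62, adjusted p = 9.62e-10). Each group was tight and the groups lay apart. The 2 genes are near copies, with 76.0 and 73.3% of their 31-base words shared with another gene, so the split of counts between them is uncertain. HSPA6, a further inducible HSP70 that is not among the 20, fell from 12.4, 11.2 and 13.8 CPM to 3.66, 1.86 and 1.94 CPM (log2 fold change -2.28, SE 0.30, adjusted p = 0.00848, and without replicate 2 -2.15, adjusted p = 2.03e-05). The constitutive HSPA8 was at 1752, 1707 and 1833 CPM at 6 h and 929, 732 and 996 CPM at 24 h (log2 fold change -0.99, SE 0.17, adjusted p = 0.0148, and without replicate 2 -0.87, adjusted p = 8.99e-10). Of the remaining called members of the list, HSP90AA1 gave -0.77, its cochaperones AHSA1 and STIP1 -0.82 and -0.78, HSPH1, which exchanges the nucleotide of HSP70, -0.62, DNAJB1, which stimulates its ATPase, -0.72, and the small chaperone HSPB1 -0.90.

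The HSPA1A and HSPA1B promoters, both on chromosome 6, are printed for the heat shock element core GAANNTTC, in capitals, 106 and 105 bases before the start. They cover chr6:31815293-31815542 and chr6:31827488-31827737 on the plus strand (RefSeq, GRCh38.p14), 5′ to 3′.
HSPA1A: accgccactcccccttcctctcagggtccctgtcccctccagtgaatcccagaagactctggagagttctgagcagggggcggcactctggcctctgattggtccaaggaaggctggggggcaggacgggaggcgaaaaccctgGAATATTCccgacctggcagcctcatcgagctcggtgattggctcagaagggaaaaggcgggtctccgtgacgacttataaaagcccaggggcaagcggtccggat
HSPA1B: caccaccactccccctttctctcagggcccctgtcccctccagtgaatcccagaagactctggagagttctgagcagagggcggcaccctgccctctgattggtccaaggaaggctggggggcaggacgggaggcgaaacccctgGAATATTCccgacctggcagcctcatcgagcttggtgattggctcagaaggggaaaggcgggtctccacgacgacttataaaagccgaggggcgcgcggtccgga
Of 19 heat shock promoters with an entry, 7 held the core (36.8%), against 3.81% of the promoters of tested genes and 5.85% of all promoters.

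The proteasome is the target of the drug to which the line is resistant. Of 31 subunit genes tested, all 31 had a negative log2 fold change, with a range of -1.11 to -0.24 and a median of -0.69. The threshold was passed by 10 of them (32.3%, beside 5.81% of all tested genes called lower). Without 24 h replicate 2 it was passed by 29 (93.5%, beside 21%), with a median of -0.47. PSMD1, a scaffold of the regulatory particle, was read at 212, 209 and 208 CPM at 6 h and 132, 129 and 146 CPM at 24 h (log2 fold change -0.63, SE 0.12, adjusted p = 0.0209, and without replicate 2 -0.59, adjusted p = 9.12e-06). PSMB2, a subunit of the catalytic core, was at 157, 149 and 169.9 CPM at 6 h and 108, 83.9 and 101 CPM at 24 h (log2 fold change -0.69, SE 0.14, adjusted p = 0.0236, and without replicate 2 -0.60, adjusted p = 2.58e-05). In both genes the groups were separate. PSMC4 and PSMC3, ATPases of the base, were at -1.11 and -1.05, with replicate 2 at 39.9 and 66.0 CPM, far under the other 24 h libraries at 84.0 to 85.3 and at 127 CPM. With an offset for GC content and length, chosen after the data had been seen, the median was -0.52 with 16 calls. In that fit 858 of 10554 tested genes were called lower. The median was -0.39 with 28 calls without replicate 2, where 2023 of 10748 tested genes were called lower. With 6 h replicate 1, 2 or 3 left out in place of it, the calls were lost, at medians of -0.68, -0.74 and -0.66.

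Of 11 tested genes that have been tied to proteasome inhibitor resistance, 1 rose and 1 fell, with a median of -0.52. The share was 9.09% each way, near the 9% higher and 5.81% lower of all tested genes. Without 24 h replicate 2, 1 rose (9.09%, beside 20.1%) and 6 fell (54.5%, beside 21%), with a median of -0.32. All 6 that fell there, POMP, PSMB5, PSMB8, PSMB10, PSME1 and PSME2, belong to the proteasome or act on it, as do most tested members of this list. ABCB1, the efflux pump that exports carfilzomib, was read at 1721, 1830 and 1619 CPM at 6 h and 1562, 1790 and 1716 CPM at 24 h, and the groups overlapped (log2 fold change -0.03, SE 0.15, adjusted p = 0.904, and without replicate 2 -0.07, adjusted p = 0.373). ABCC1, another efflux pump, rose from 33.6, 52.8 and 45 CPM to 76.9, 149 and 77.0 CPM (log2 fold change 1.20, SE 0.30, adjusted p = 0.0366, and without replicate 2 0.82, adjusted p = 7.19e-05). POMP, the chaperone of core assembly, fell from 126, 114 and 132 CPM to 76.7, 44.7 and 77.5 CPM (log2 fold change -0.90, SE 0.21, adjusted p = 0.0331, and without replicate 2 -0.69, adjusted p = 1.04e-05). PSMB5, the subunit that carfilzomib binds, was at 158, 132 and 154 CPM and then 104, 58.2 and 116 CPM, which did not pass in 6 libraries (log2 fold change -0.67, SE 0.24, adjusted p = 0.0896) and passed without replicate 2 (-0.43, adjusted p = 0.00105). The transcription factors NFE2L1 and NFE2L2, which drive proteasome and antioxidant genes, gave 0.02 and -0.17 with overlapping groups. KLF4 and ABCG2 were at or near 0 in every library and were not tested. PSMB8, PSMB9 and PSMB10 of the immunoproteasome and its activators PSME1 and PSME2 had log2 fold changes between -0.82 and -0.50 and did not pass in 6 libraries.

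Genes of ribosome production were lower too. Of 29 tested ribosome biogenesis genes, 11 fell (37.9%, beside 5.81% of all tested genes) and 0 rose, with a median of -0.42. Without 24 h replicate 2, 21 fell (72.4%, beside 21%), with a median of -0.40. NOP2, a nucleolar RNA methyltransferase, was read at 119.7, 123 and 126 CPM at 6 h and 66.2, 62.6 and 66.1 CPM at 24 h (log2 fold change -0.92, SE 0.12, adjusted p = 0.00822, and without replicate 2 -0.89, adjusted p = 4.02e-07). PES1, a factor of large subunit maturation, was at 141, 142 and 146 CPM at 6 h and 98.2, 83.5 and 94.7 CPM at 24 h (log2 fold change -0.63, SE 0.12, adjusted p = 0.0213, and without replicate 2 -0.56, adjusted p = 3e-05). These 2 were even within each group. Of the 20 cytosolic aminoacyl-tRNA synthetases, 4 fell (20%, beside 5.81% of all tested genes) and 0 rose, with a list median of -0.37. The 4 were MARS1, FARSA, HARS1 and KARS1, with log2 fold changes of -0.68, -0.73, -0.76 and -0.60. Without replicate 2, 13 of the 20 fell (65%, beside 21% of all tested genes), with a list median of -0.26. Another 3 rose (15%, beside 20.1%), LARS1 and EPRS1 among them. EPRS1, whose product carries the prolyl-tRNA synthetase activity the study set out to inhibit, was at 465, 479 and 449.7 CPM at 6 h and 555, 558 and 538 CPM at 24 h, higher in each 24 h library than in any 6 h library without passing in 6 libraries (log2 fold change 0.24, SE 0.13, adjusted p = 0.197, and without replicate 2 0.24, adjusted p = 0.00584).

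Cytosolic ribosomal protein genes depended most on 24 h replicate 2. All 78 were tested, all had negative log2 fold changes from -0.99 to -0.38 with a median of -0.62, and 0 passed in 6 libraries by edgeR's test, with 5 at an unadjusted p under 0.05 and 1 call by DESeq2's Wald test. The summed level was 118905, 116339 and 127067 CPM at 6 h and 99454, 39229 and 98767 CPM at 24 h, so that replicate 2 lay far under both other libraries of its group. Without it, 73 fell (93.6%, beside 21% of all tested genes) and the median was -0.29. With the GC content and length offset as well, the median was -0.05, with 5 higher and 28 lower. In that fit 2041 of 10748 tested genes were called higher and 2023 lower. The size of the difference in these short, abundant transcripts thus changed with the library and with the length offset. In the contrasts described below that share no library, AMO1 with DMSO had 75 of 78 lower (96.2%, beside 23.4% of all tested genes), with a median of -0.23. L363-CFZr with halofuginol had 47 lower (60.3%, beside 22.3%), with a median of -0.14, and 0 rose in either.

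Genes of sterol synthesis rose in part. Of 24 tested, 6 rose (25%, beside 9% of all tested genes) and 1 fell (4.17%, beside 5.81%), with a median of 0.16. Without 24 h replicate 2, 10 rose (41.7%, beside 20.1%) and 2, EBP and PMVK, fell (8.33%, beside 21%), with a median of 0.22. INSIG1, which holds the SREBP precursor in the endoplasmic reticulum, was read at 98.2, 94.5 and 89.6 CPM at 6 h and 171, 145 and 178 CPM at 24 h (log2 fold change 0.81, SE 0.13, adjusted p = 0.0141, and without replicate 2 0.90, adjusted p = 1.38e-07). HMGCS1, an enzyme of the early pathway, was at 72.7, 66.4 and 60.5 CPM at 6 h and 125, 91 and 104 CPM at 24 h (log2 fold change 0.68, SE 0.16, adjusted p = 0.0312, and without replicate 2 0.80, adjusted p = 9.12e-06). The 24 h levels were above the 6 h levels in every library of both genes. MSMO1, an oxidase that helps to demethylate sterols, and STARD4, a sterol carrier, gave 0.72 and 0.98, and EBP, an isomerase, gave -0.70. Of 9 fatty acid synthesis genes, 2 rose, SCD, the desaturase that makes oleate, at 1429, 1401 and 1338 CPM at 6 h and 2466, 3089 and 2541 CPM at 24 h (log2 fold change 0.96, SE 0.16, adjusted p = 0.0146, and without replicate 2 0.85, adjusted p = 1.87e-10), and ELOVL6, an elongase, at 1.30 (adjusted p = 0.00668). Without replicate 2, 4 of the 9 rose (44.4%) and 1, SREBF1, fell (11.1%).

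Of 32 G2/M genes tested, 7 rose (21.9%, beside 9% of all tested genes) and 0 fell, with a median of 0.33. Without 24 h replicate 2, 21 rose (65.6%, beside 20.1%), with a median of 0.40. ASPM, a spindle pole protein, was read at 34.6, 41.3 and 33.1 CPM at 6 h and 81.8, 117 and 96.2 CPM at 24 h (log2 fold change 1.44, SE 0.18, adjusted p = 0.00752, and without replicate 2 1.31, adjusted p = 1.17e-07). KIF11, the kinesin that pushes spindle poles apart, was at 36.5, 40.3 and 38 CPM at 6 h and 69.1, 66.7 and 71.2 CPM at 24 h (log2 fold change 0.85, SE 0.12, adjusted p = 0.0103, and without replicate 2 0.88, adjusted p = 4.32e-06). TOP2A, CENPF, CENPE, ANLN and MKI67 made up the rest, and MKI67, the proliferation antigen Ki-67, owed much of its size to replicate 2, at 159, 163 and 141 CPM and then 229, 500.0 and 239.9 CPM, with 1.06 in 6 libraries and 0.61 without it. Of 34 G1/S genes, 2 fell and 0 rose, a share close to the 5.81% of all tested genes, with a median of -0.21. They were MCM5 of the replicative helicase, at -0.76, and GINS2 of the same machine, at -1.09. Without replicate 2, 10 of the 34 fell and 1, TYMS, rose. Growth arrest and FOXO-associated genes had 4 of 17 higher and 0 lower, with a median of 0.37, and CCNG2, a cyclin linked to arrest, rose from 12.4, 12.9 and 9.34 CPM to 32.2, 26.5 and 34.7 CPM (log2 fold change 1.45, SE 0.19, adjusted p = 0.00848, and without replicate 2 1.57, adjusted p = 1e-06). Without replicate 2, 8 of that list rose and 1, KLF2, fell. Of 18 p53 target genes, 1 rose, TP53INP1 at 0.99, and 1 fell, AEN, a nuclease, at -1.11. That is 5.56% each way, beside 9% higher and 5.81% lower of all tested genes. With replicate 2 left out, 5 rose (27.8%) and 4 fell (22.2%), beside 20.1% and 21%. Both counts were near the shares of all tested genes.

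Of 33 ATF4 and amino acid response genes tested, 4 rose and 4 fell, with a median of -0.04. That is 12.1% each way, beside 9% higher and 5.81% lower of all tested genes. The fit without 24 h replicate 2 had 5 higher (15.2%) and 8 lower (24.2%), with a median of 0.05. There, 20.1% of all tested genes were called higher and 21% lower. ATF4 itself was at 445, 448 and 470.3 CPM at 6 h and 496, 313 and 462 CPM at 24 h, with the groups overlapping and replicate 2 the lowest (log2 fold change -0.10, SE 0.19, adjusted p = 0.718, and without replicate 2 0.08, adjusted p = 0.357). DDIT3, the proapoptotic factor downstream of it, was at 31, 32.5 and 30.1 CPM at 6 h and 20.8, 8.57 and 18.9 CPM at 24 h (log2 fold change -0.92, SE 0.28, adjusted p = 0.0588, and without replicate 2 -0.64, adjusted p = 0.00135). The called members were split. VLDLR, a lipoprotein receptor, STC2, a secreted glycoprotein, and SLC38A2, a transporter of neutral amino acids, rose at 1.43, 1.30 and 0.96, and ALDH1L2, a mitochondrial folate enzyme, at 0.90. PPP1R15A, the phosphatase subunit that ends the integrated stress response, fell from 61.0, 64.7 and 69.9 CPM to 36.4, 32.1 and 34 CPM (log2 fold change -0.93, SE 0.13, adjusted p = 0.00989, and without replicate 2 -0.89, adjusted p = 8.16e-06). SLC3A2, ATF5 and CHAC1 were at -0.74, -0.73 and -1.44. Of 23 endoplasmic reticulum folding genes, 3 rose and 1 fell, with a median of -0.26, whereas without replicate 2, 4 rose and 12 fell, with a median of -0.20. ERO1A, the oxidase that forms disulfide bonds, rose from 130, 141 and 122 CPM to 357, 382 and 345 CPM (log2 fold change 1.46, SE 0.13, adjusted p = 0.00245, and without replicate 2 1.43, adjusted p = 6.39e-11). HERPUD1, a component of degradation from the endoplasmic reticulum, fell with -0.91.

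Of 11 tested plasma cell markers, 3 fell (27.3%, beside 5.81% of all tested genes) and 0 rose, with a median of -0.06. The 3 were SDC1, SLAMF7 and TNFRSF17, surface proteins used as myeloma targets. Without 24 h replicate 2, 4 fell (36.4%, beside 21%), with MZB1 added, and the median was -0.04. The 2 that rose there, IRF4 and JCHAIN, were 18.2% of the list, near the 20.1% of all tested genes. SDC1, whose levels are given above, was lower in every 24 h library (log2 fold change -0.79, SE 0.13, adjusted p = 0.0151, and without replicate 2 -0.79, adjusted p = 2.57e-08). SLAMF7, an adhesion receptor, was at 143, 148 and 141 CPM and then 90.9, 84.3 and 84.0 CPM (log2 fold change -0.74, SE 0.12, adjusted p = 0.0133, and without replicate 2 -0.71, adjusted p = 3.27e-06). TNFRSF17, which encodes BCMA, was at 285, 283 and 314 CPM and then 163, 71.2 and 135 CPM (log2 fold change -1.25, SE 0.27, adjusted p = 0.0269, and without replicate 2 -0.98, adjusted p = 8.6e-08). All 3 had separate groups, as did every called gene. IRF4, the transcription factor on which myeloma cells depend, was at 350.2, 341 and 319 CPM and then 442, 573 and 408 CPM (log2 fold change 0.49, SE 0.16, adjusted p = 0.0755), and passed without replicate 2 (0.34, adjusted p = 0.000684). PRDM1, POU2AF1, XBP1, CD38 and DERL3 had overlapping groups, and JCHAIN was lower only in replicate 2, so that its log2 fold change was -0.06 in 6 libraries and 0.18 without it. MYC, MCL1, PIM2 and TCF3 gave -0.23, -0.11, -0.33 and 0.31, and none of the 4 passed in 6 libraries. Without replicate 2, MYC (-0.23, adjusted p = 0.0135), PIM2 (-0.36, adjusted p = 0.000114) and TCF3 (0.26, adjusted p = 0.00176) passed and MCL1 did not. CCND1 was at 1.12 CPM or less and was not tested.

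Several smaller lists held single genes with even changes. Beside the counts of these lists, 9% of all tested genes were called higher and 5.81% lower in 6 libraries. The shares without 24 h replicate 2 were 20.1% and 21%. BCL2L1, which encodes the survival protein BCL-XL, fell from 68.8, 71.8 and 78.6 CPM to 42.3, 45.5 and 40.1 CPM (log2 fold change -0.78, SE 0.13, adjusted p = 0.0139, and without replicate 2 -0.83, adjusted p = 1.05e-05), while BCL2 rose at 0.92 and BMF, a BH3-only antagonist, at 0.89, and BAD, another, fell at -0.80. These were the 4 called of 12 BCL2 family genes, and without replicate 2, 4 rose and 4 fell. HMOX1, heme oxygenase, was at 221, 224 and 287 CPM and then 92.8, 55.2 and 97.1 CPM (log2 fold change -1.57, SE 0.23, adjusted p = 0.0113, and without replicate 2 -1.37, adjusted p = 1.34e-08), 1 of 3 NRF2 and oxidative stress genes of 18 that fell, the others being TXNRD1 and SRXN1. Without replicate 2, 10 of the 18 fell and 1, ABCC2, rose. Most of SRXN1's 31-base words, 90.6%, also occur in another gene, so its value is uncertain. TRAF1, an adaptor induced by NF-kB, rose from 64.2, 59.6 and 64.3 CPM to 188, 277 and 188 CPM (log2 fold change 1.79, SE 0.19, adjusted p = 0.00495, and without replicate 2 1.58, adjusted p = 6.39e-11). ICAM1, an adhesion molecule, fell from 241, 229 and 230 CPM to 145, 141 and 140.5 CPM (log2 fold change -0.71, SE 0.12, adjusted p = 0.0141, and without replicate 2 -0.71, adjusted p = 8.24e-07), and these were the 2 called of 12 NF-kB feedback genes. Without replicate 2, 4 of 13 rose and 5 fell. FOSL2, a subunit of AP-1, led 4 of 23 immediate early genes that rose, at 1.69, followed by SPRED1, ZFP36L1 and ZFP36L2. Without replicate 2, 7 of 24 rose and 4 fell. Of 26 lysosome and autophagy genes, 7 fell, among them SQSTM1, the autophagy receptor p62, at -0.91, and MCOLN1, a lysosomal cation channel, at -0.89, and 1 rose, FNIP1. Without replicate 2, 13 of 27 fell and 3 rose (FNIP1, RRAGD and ULK1). Of 13 mitochondrially encoded genes 0 were called in 6 libraries by edgeR's test, with 0 at an unadjusted p under 0.05 and 0 calls by DESeq2's Wald test, and 4 rose and 3 fell without replicate 2. Of 10 tested histone genes 2 fell and 0 rose, and without replicate 2, 4 fell and 1, H2BC5, rose. For 1 of those that fell, H2BC12, the fold change of -0.90 became 0.03 under the GC content and length offset.

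The largest rises by size were of genes barely detected at 6 h. UPB1, an enzyme of pyrimidine breakdown, and L1CAM, a neural adhesion molecule, had 3 counts each over all 6 h libraries. Over the 24 h libraries, replicate 2 included, they had 141 and 127 counts. After division by the group totals the ratios were 49.4 (95% exact conditional interval 16.6 to 242) and 44.5 (14.9 to 219). The interval covers counting error only. Both genes passed the filter through their 24 h counts and were picked for the size of the rise. The ratios are therefore no separate support for it. PTPN14, CAPN12, ARHGEF17, GPSM1, FAT4, SCN4A and HSPG2 were at 1.49 CPM or less in each 6 h library and between 3.42 and 15.7 CPM in each 24 h library. TSPAN9, a tetraspanin, was at 0.652, 0.339 and 1.27 CPM and then 8.06, 6.34 and 6.80 CPM. PPFIA4, a liprin scaffold, was better covered, at 23.2, 22.4 and 22.7 CPM at 6 h and 154, 280.0 and 145 CPM at 24 h (log2 fold change 3.08, SE 0.28, adjusted p = 0.00245, and without replicate 2 2.72, adjusted p = 9.63e-13). ANKHD1-EIF4EBP3, a readthrough gene, rested largely on replicate 2, at 24.4, 127 and 20.4 CPM at 24 h, and 78.0% of its 31-base words are shared with another gene, mainly ANKHD1. Among the falls outside the lists, H1-10, a linker histone, went from 326, 302 and 340 CPM to 116, 74.2 and 113 CPM (log2 fold change -1.67, SE 0.19, adjusted p = 0.00668, and without replicate 2 -1.49, adjusted p = 6.39e-11), and ENSG00000006075, an identifier with no name in the annotation used, from 36.9, 37.9 and 32.5 CPM to 11, 6.71 and 10.2 CPM (log2 fold change -1.91, SE 0.20, adjusted p = 0.00533, and without replicate 2 -1.74, adjusted p = 2.15e-07). ARPIN-AP3S2, a readthrough gene with 96.9% of its words shared, gave -1.54, and SYNC, an intermediate filament protein that was at 0 in replicate 2, gave -1.43 without that library.

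The same contrast was available in AMO1 cells with DMSO, where both times carried library numbers of a single set but storage differed by time in the same way. There, 23.1% of 10665 tested genes were called higher at 24 h and 23.4% lower, and AMO1 shares no library with L363-CFZr. Of 1500 genes called in L363-CFZr and tested in both lines, 1181 (78.7%) were also called in AMO1, where 47% of the genes tested in both were called, and 1174 of them had the same sign; the 1181 were 24.9% of the calls of AMO1. Without 24 h replicate 2, 2914 were called in both, 67.9% of the calls of L363-CFZr and 61.3% of those of AMO1. Across genes, which are not independent replicates, Pearson's r of the log2 fold changes was 0.586, and 0.609 without 24 h replicate 2. Hypoxia response genes had 15 of 19 higher and 0 lower in AMO1, with a median of 0.87, interferon-stimulated genes 19 of 26 lower and 1, STAT2, higher, with a median of -0.78, heat shock genes 15 of 20 lower, and proteasome subunits 29 of 31 lower. MX1, at a log2 fold change of -2.74 in AMO1, and P4HA1, at 1.25, moved as in L363-CFZr.

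**Figure D3:**
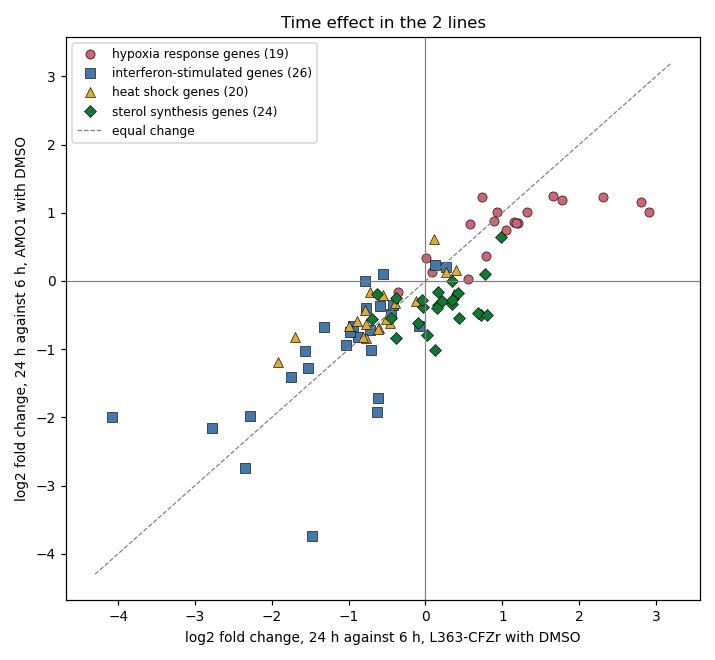
Log2 fold change at 24 h against 6 h in L363-CFZr (horizontal) and in AMO1 (vertical), both with DMSO, for the tested members of 4 gene lists, one symbol per gene, with a dashed line of equal change. Hypoxia response genes fall in the upper right and interferon-stimulated genes in the lower left, while several sterol synthesis genes, INSIG1 at 0.81 and -0.50 among them, fall below 0 in AMO1 alone.

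The difference of the time effects between the lines was tested as an interaction over 12 libraries. It was past the threshold for 92 of 11146 genes, 42 (0.377%) with a more positive change in L363-CFZr and 50 (0.449%) with a more negative one, and for 751 genes without 24 h replicate 2, 399 and 352. With 1 of the 6 h libraries of L363-CFZr left out it was 18, 21 and 18, and without 24 h replicate 1 it was 44. The set of library numbers differed between the times in L363-CFZr alone, so line and set cannot be told apart in these differences. Among 24 sterol synthesis genes, 6 (25%) were more positive in L363-CFZr and 0 more negative, with a median difference of 0.51. Without replicate 2, 14 of the 24 (58.3%, beside 3.55% of all tested genes) were more positive, at a median of 0.62. INSIG1 rose in L363-CFZr but went from 439, 495 and 534 CPM to 343, 335 and 357 CPM in AMO1, a difference of 1.30 on the log2 scale (adjusted p = 0.00221; without replicate 2 1.42, adjusted p = 1.04e-08). HMGCS1 differed in the same direction (1.14, adjusted p = 0.0243). FASN, the fatty acid synthase, fell in AMO1 from 486, 470 and 457 CPM to 253, 260 and 279 CPM and differed by 1.80 (adjusted p = 0.0391; without replicate 2 1.29). Of the hypoxia response list, HILPDA and RORA were more positive in L363-CFZr, by 1.07 and 1.63. Without replicate 2, 8 of 19 of that list were more positive (42.1%) and 2 more negative. Glycolysis and glucose uptake genes had 12 of 20 more positive there (60%) and 0 more negative. Mitochondrially encoded genes had 7 of 13 more positive (53.8%) and 0 more negative. PPP1R15A went the other way, rising in AMO1 from 135, 145 and 115 CPM to 226, 251 and 209 CPM, a difference of -1.74 (adjusted p = 0.000719).

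Halofuginol-treated L363-CFZr cells gave the same contrast in the same line with no shared library and with library numbers of a single set. Storage differed by time there as well. Halofuginol is an analogue of halofuginone that the study used against prolyl-tRNA synthetase and described as of lower or absent potency. In these cells 23.1% of 10461 tested genes were called higher at 24 h and 22.3% lower. Of the 1534 genes called under DMSO and tested in both, 1196 (78.0%) were also called there, where 45.6% of genes were called, and 1191 had the same sign; the 1196 were 25.3% of the calls under halofuginol. Without 24 h replicate 2, 2754 were called in both, 63.3% of the calls under DMSO and 58.1% of those under halofuginol. Hypoxia response genes rose in 18 of 19, with a median of 1.19, HILPDA at 2.72, and interferon-stimulated genes fell in 22 of 26, with a median of -0.87. Sterol synthesis genes had 13 of 24 higher (54.2%) and 0 lower, with a median of 0.29, where AMO1 with DMSO had 1 higher and 15 lower. By their counts of calls, other lists were less alike between DMSO and halofuginol. Glycolysis and glucose uptake genes had 16 of 19 higher and 0 lower under halofuginol, and 14 higher and 3 lower under DMSO without 24 h replicate 2. ATF4 and amino acid response genes had 14 of 33 higher and 3 lower under halofuginol. Under DMSO without that library, 5 were higher (15.2%, beside 20.1% of all tested genes) and 8 lower (24.2%, beside 21%). With all libraries kept, the interaction of treatment and time called 0 members of either list. Without 24 h replicate 2, 0 members were more positive under DMSO. More negative were 8 of 19 (42.1%) and 6 of 33 (18.2%), beside 4.53% of all tested genes. The interaction of treatment and time called 0 of 10781 genes higher and 0 lower (0% each) by edgeR's quasi-likelihood test, with a smallest adjusted p of 0.196, 1697 genes at an unadjusted p under 0.05, 93 calls by DESeq2's Wald test and 1031 calls by edgeR without 24 h replicate 2. The set of library numbers differed between the times under DMSO but not under halofuginol, so treatment and set cannot be told apart in these differences. A fit of all 10 L363-CFZr groups with a term for the set of library numbers called 1629 of 11611 genes for DMSO, 851 higher and 778 lower. In it 15 of 19 hypoxia response genes were higher and 14 of 31 interferon-stimulated genes lower. That term rests on the 3 NCP22 libraries at 6 h, the only group whose library numbers fell in both sets.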

How the data were processed

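Polyadenylated RNA of L363-CFZr cells with DMSO was sequenced from directional libraries read from both ends, and the authors deposited whole-number counts per gene, made per the labels with kallisto, for 20167 Ensembl genes. The labels name the build hg19 whereas the study's methods name GRCh38 with 31-base words; the kallisto version, the annotation and the step to whole numbers were not given in the sources used here. Names, positions, GC content and lengths came from GENCODE release 44 (19299 identifiers matched, 868 did not).

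Counts were fitted for each comparison on its own libraries with edgeR 4.0.16 (R 4.3.3), using TMM scaling, filterByExpr (minimum count 10, minimum total 15), the quasi-likelihood test and Benjamini-Hochberg adjustment over all tested genes at 0.05, and checked with DESeq2 1.42.0 and limma 3.58.1. The fit was tested on simulated data. SE is that of the log2 fold change. Differences between time effects were tested as interactions. Library totals of 2487872 to 4983522 limit the precision for genes of a few CPM, and 3 counts over a group correspond to 0.269 CPM at 6 h and 0.282 CPM at 24 h. Replicate numbers shared by the groups were not used to pair the samples, since the labels share only the number. Alternatives covered scaling, tool, filter, each library left out, the replicate block, all 10 L363-CFZr groups, the set of library numbers, GC content, sample weights and, added after seeing the data, GC content with length.

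The groups, the 30 gene lists and the rules were chosen with earlier results of these data known. Genes named were the 10 largest rises and falls among called genes with at least 5 CPM in the higher group and no overlap, 5 each without 24 h replicate 2, up to 4 called members per list by adjusted p, the 3 largest differences in each direction of each interaction, the resistance genes, the plasma cell markers and the study's named targets; other list members given by a value or as exceptions were chosen after their values were seen. Shared 31-base words were counted between the GENCODE transcripts of different genes with Python 3.11.15. Figures were drawn with matplotlib 3.10.9. Some members of the lists are counted in them but not reported here by name.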

Additional observations from a re-analysis of the deposited data

Results flagged for a closer look

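The results of this section are 21 genes picked by the naming rules above, with DMSO in both lines. Their change from 6 h to 24 h differed between L363-CFZr and AMO1 by edgeR's interaction test at an adjusted p under 0.05. HMGCS1 and FASN, given above, also passed but were not picked by those rules. Of the 21, 11, 10 and 10 still passed without 6 h replicate 1, 2 and 3 of L363-CFZr. Without its 24 h replicate 1, 2 and 3 it was 15, 21 and 16. Each value is the log2 fold change in L363-CFZr minus that in AMO1.

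Among genes of lipid and sterol metabolism the difference was 1.30 for INSIG1, 1.205 for MSMO1 and 0.86 for SCD. Among genes of low oxygen and glycolysis it was 1.91 for AK4, 1.63 for RORA, 1.07 for HILPDA, 0.88 for PFKFB3 and 0.79 for ENO2. HILPDA rose in both lines, from 88.5, 85.0 and 83.0 CPM to 198, 212 and 191 CPM in AMO1. PPP1R15A gave -1.74, HSPA1B -0.89, AEN -0.82, ICAM1 -0.57 and H1-10 -1.05. ENSG00000006075, which fell in L363-CFZr, gave -1.93, with a log2 fold change of 0.02 in AMO1.

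The following differences belong to genes at or near 0 at 6 h in L363-CFZr. KCNMB4, a potassium channel subunit, gave 5.64, L1CAM 4.08, ADGRA2, an adhesion receptor, 3.85 and SCN4A, a sodium channel, 3.41. KCNMB4 had 0 counts over the 6 h libraries of L363-CFZr and 24 over the 24 h libraries, a level at least 8.41-fold higher when 3 counts over the group are taken as the floor. ADGRA2 had 1 count at 6 h and 30 at 24 h, a ratio of 31.5 with a 95% exact conditional interval of 5.24 to 1287 that covers counting error only. These genes were picked for the size of their difference, so the ratio and the bound are no separate support for it. Fitted differences of such genes depend on the prior count.

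In 3 genes the change lay in AMO1. ITPRIPL2 gave -5.68, ARHGEF33, which encodes an exchange factor, -6.06 and ENSG00000269339 -15.7. ITPRIPL2 went from 29.9, 7.51 and 49.3 CPM to 1169, 1765 and 1122 CPM in AMO1, whereas in L363-CFZr it varied among replicates, at 415, 747 and 1827 CPM at 6 h and 320.1, 1290 and 1151 CPM at 24 h. ENSG00000269339 was at 0 in all 3 AMO1 libraries at 6 h and between 1207 and 1941 CPM at 24 h, and at 371 to 2367 CPM in L363-CFZr. The size of its fitted difference of -15.7 therefore depends on the prior count as well.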

How the results depend on the processing

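The 1563 calls became 1574 with DESeq2 size factors, 2190 with DESeq2's Wald test, 1838 with no filter, 1281 with the GC content offset, 1629 with the library number term, 1972 with the GC content and length offset, 5169 with all 10 L363-CFZr groups, 4730 with sample weights and 4064 with the GC content and length offset without 24 h replicate 2, and ranged from 14 to 4419 when each library was left out. With the replicate block it was 1801, and 1139 with the GC content offset added. Same-numbered libraries correlated at -0.01, 0.07 and 0.07 in their deviations from the group means, libraries with numbers 1 and 3 correlated better with another number, and the labels share only the number, so the pairing was not used. The 92 line differences became 195 with the Wald test and 303 with the GC content and length offset, and ranged from 18 to 751 with a library left out. The 0 treatment differences became 93 with the Wald test and ranged from 0 to 1031. The cause of these changes was not tested. Of the 136 genes called in 6 libraries whose fold change was recomputed, 136 were kept without 24 h replicate 2, 119 and 107 without 24 h replicate 1 and 3, and 10, 12 and 8 without 6 h replicate 1, 2 and 3. The sign turned under at least 1 alternative for 27 of the genes recomputed, of which H2BC12 alone was called in 6 libraries. With each library left out, ABCB1 ranged from -0.068 to 0.023, TRIB3 from -0.15 to 0.0053, ATF4 from -0.23 to 0.079, JCHAIN from -0.24 to 0.18, NFE2L1 from -0.11 to 0.12, POU2AF1 from -0.046 to 0.18, ITPRIPL2 from -0.49 to 0.67, ARHGEF33 from -0.89 to 0.43, ENSG00000269339 from -0.67 to 0.56, BHLHE40 from -0.017 to 0.043, FAM162A from -0.10 to 0.38, STAT2 from -0.14 to 0.27 and TYMS from -0.12 to 0.25. With no filter, NFE2L1 was at -0.023 and BHLHE40 at -0.031. With the replicate block, FAM162A was at -0.0031. With the GC content offset, TRIB3 was at 0.0081, ATF4 at 0.031, ITPRIPL2 at 0.024 and FAM162A at -0.077. With the block and the GC content offset together, ITPRIPL2 was at 0.029, FAM162A at -0.15 and HSP90B1 at -0.0071. With the library number term, ATF4 was at 0.080, JCHAIN at 0.023, MCL1 at 0.12, NFE2L1 at -0.081, POU2AF1 at -0.0028, NFE2L2 at 0.13, ITPRIPL2 at 0.036, ARHGEF33 at 0.43, ENSG00000269339 at 0.23, BHLHE40 at -0.13, CD4 at -0.20 and STAT2 at -0.24. With sample weights, ATF4 was at 0.065, JCHAIN at 0.14, NFE2L1 at -0.077, POU2AF1 at -0.035 and STAT2 at -0.14. With the GC content and length offset, TRIB3 was at 0.054, ATF4 at 0.11, JCHAIN at 0.36, H2BC12 at 0.027, MT-CO3 at 0.11, ENO1 at 0.088, FAM162A at -0.24, HSP90B1 at -0.19, LARS1 at -0.31, RRAGD at -0.075 and STAT2 at -0.12. With that offset and without 24 h replicate 2, TRIB3 was at 0.14, ATF4 at 0.26, JCHAIN at 0.26, MZB1 at 0.043, PRDM1 at -0.055, XBP1 at 0.0040, ADM at 0.0089, ENO1 at 0.13, HSP90B1 at -0.0091, LARS1 at -0.19, STAT2 at -0.20 and TPI1 at 0.12. Depth limits genes of a few CPM.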

Other observations

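The genes below set 24 h replicate 2 apart from its own group. Against the mean of 24 h replicates 1 and 3, 476 of 10554 tested genes were over 2-fold higher in it and 605 over 2-fold lower, while 35 genes differed by over 2-fold between replicates 1 and 3. The highest were OR1N1, an olfactory receptor gene read at 45.7, 56.2 and 54.4 CPM at 6 h and at 60.8, 1776 and 87.7 CPM at 24 h, and COL12A1, a collagen gene read at 12.4, 9.49 and 14.9 CPM and then at 12.7, 355 and 16 CPM. KCNK2, RNF222 and RPTN followed, at 519, 399.6 and 197 CPM in replicate 2 and at 28.4 CPM or less in every other library. limma's sample quality weight was 0.104 for replicate 2 and 0.987 to 2.26 for the other 5 libraries.

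Log2 fold changes correlated with transcript length across genes, which are not independent replicates. Pearson's r with log2 length was 0.43 in 6 libraries, 0.29 without 24 h replicate 2, 0.30 in AMO1 with DMSO and 0.15 in L363-CFZr with halofuginol. With GC content it was -0.11, -0.18, -0.17 and 0.25.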
